A study of Rattus norvegicus with 16 samples.

Results

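Glutathione S-transferases (GSTs) are enzymes that join the tripeptide glutathione to reactive, mostly fat-soluble compounds, which makes these compounds easier to export and less able to damage protein and DNA. The present account covers 10 GST genes (Gstm1, Gstm2, Gstm3, Gstm5, Gstp1, Gsta4, Gstt1, Gstk1, Gstz1 and Gsto1) in the periaqueductal gray (PAG). The PAG surrounds the midbrain aqueduct and is involved in vocal production and in the control of pain. The members were found by gene symbol in a table for each sex and then followed by Ensembl gene ID, so that 10 rows of 14857 in either table belonged to them. The rats were of the Long Evans strain and aged 8 months. The groups were female Pink1-/- rats, female WT rats, male Pink1-/- rats and male WT rats, with 4 libraries in each group and 16 in all. The kinase encoded by Pink1 flags failing mitochondria so that the cell can degrade them, and loss of the gene causes an early form of Parkinson disease in people. The labels give Pink1-/- as the genotype of the animal and name no treatment for any group.

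The value used for each gene was its average log2 CPM (CPM, a read count scaled to the size of its library, on a log2 scale), which is the authors' mean over the 8 libraries of a sex and therefore pools Pink1-/- and WT rats. Such a value has no spread and no replicate behind it that can be examined, and the depth of each library is unknown. Levels of GST transcripts in Pink1-/- rats were therefore not compared with those in WT rats here. Pink1 itself, the gene that was removed, averaged 6.08 log2 CPM in the female table and 5.13 log2 CPM in the male table with genotypes pooled, which does not check the genotype of any library.

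The soluble GSTs are divided into classes by sequence, and the members cover 7 classes, which are mu (Gstm genes), pi (Gstp1), alpha (Gsta4), theta (Gstt1), kappa (Gstk1), zeta (Gstz1) and omega (Gsto1). All of them bind glutathione through a thioredoxin-like domain, and the kappa enzyme, which has another domain arrangement, is found in mitochondria and peroxisomes. In the rodent brain, mu class enzymes are known mainly from astrocytes and related glia, and the pi enzyme is a marker of mature oligodendrocytes, the cells that make myelin. Alpha 4 is known for its high activity towards 4-hydroxynonenal, an aldehyde formed when membrane lipids are oxidized.

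The identity of the Gstm rows had to be settled before their levels could be read, because the same Ensembl ID did not always carry the same name. ENSRNOG00000049743 was named Gstm5 in the female table and Gstm3 in the male table. ENSRNOG00000018937 was named Gstm2 in the female table and Gstm7 in the male table. ENSRNOG00000058357 was named Gstm3 in the female table and had no row in the male table. The same name, Gstm3, thus stood on a different ID in each table. Gstm1 (ENSRNOG00000029726) kept its name, as did the 6 members of other classes. Of 13731 IDs with a row in both tables, 279 (2.03%) changed symbol, and 2 of the 9 GST rows in both tables were among them. In the following, a row with a changed name is given with both names, the female table's first, as Gstm5/Gstm3 and Gstm2/Gstm7.

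The Gstm genes lie side by side in the rat genome. In the RefSeq annotation of GRCr8, 9 Gstm genes stood on chromosome 2 in the order Gstm5, Gstm6l, Gstm7, Gstm6, Gstm3l1, Gstm3, Gstm2, Gstm1 and Gstm4, with 0 other protein-coding genes between them. RefSeq listed Gstm3 as a synonym of both Gstm5 and Gstm7, and Gstm4 and Gstm3l1, which are also genes of their own there, as synonyms of Gstm3. The reference table paired no Ensembl ID with these genes, so which of them each row stands for could be followed by name only. RSEM, the program used by the authors, divides a read that matches several genes among them by their estimated abundance, and the level of a single Gstm row is therefore uncertain where transcripts are alike. Pseudogenes can take reads in the same way. RefSeq named 4 pseudogenes of Gstp1 and 3 of Gsta4, and none by that naming for Gstm, Gstt1, Gstk1, Gstz1 or Gsto1.

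The DNA just upstream is shown for the 5 Gstm genes whose names were exchanged or stood beside an exchange. It does not settle which of them a row stands for. Each line gives the 100 bases before the transcript start, 5′ to 3′ on the gene's own strand, from RefSeq (GRCr8). Capitals mark TATAAA or, for the opposite strand, TTTATA, the letters of a TATA box.
Gstm5 (chr2:198219669-198219768, plus strand): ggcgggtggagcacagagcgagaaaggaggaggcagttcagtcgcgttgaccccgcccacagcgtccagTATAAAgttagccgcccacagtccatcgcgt
Gstm7 (chr2:198260320-198260419, minus strand): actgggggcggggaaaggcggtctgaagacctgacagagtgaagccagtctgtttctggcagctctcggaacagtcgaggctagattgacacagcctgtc
Gstm3 (chr2:198300668-198300767, minus strand): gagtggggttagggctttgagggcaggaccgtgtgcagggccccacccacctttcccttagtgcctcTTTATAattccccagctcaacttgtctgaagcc
Gstm2 (chr2:198316918-198317017, minus strand): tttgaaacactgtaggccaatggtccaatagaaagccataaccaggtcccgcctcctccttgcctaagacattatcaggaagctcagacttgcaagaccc
Gstm1 (chr2:198343384-198343483, minus strand): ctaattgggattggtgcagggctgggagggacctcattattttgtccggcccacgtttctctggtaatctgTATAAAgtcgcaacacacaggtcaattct

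The letters TATAAA began 31 bases before the start in Gstm5, 29 in Gstm1 and, on the opposite strand, 33 in Gstm3, and were in neither Gstm2 nor Gstm7. Likeness of upstream sequences was read only as the longest exact shared run, with no alignment and no background from genes outside the cluster. Among the 28 pairs of 8 Gstm genes with a promoter window (250 bases before and 50 after the start), the longest exact run shared upstream was 7 to 17 bases with a median of 8.5, and the longest, 17 bases, was shared by Gstm6 and Gstm3l1. The first 50 transcribed bases shared runs of 4 to 15 bases with a median of 5, the longest between Gstm3 and Gstm1. These windows hold little of the transcript, so they do not show how far reads could be confused.

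Of the 10 members, 9 had such a window, and Gstt1 had none. Over both strands of these 9 windows of 300 bases, TATAAA was in 3 (Gstm1, Gstm3 and Gstm5), against 14.2% of 33469 rat windows. TGACTCA, the letters bound by AP-1 factors, was in 3 (Gstm5, Gstp1 and Gsto1), against 4.63% of windows. TGACNNNGC, the core of the antioxidant response element through which Nrf2 acts, was in 3 (Gstm5, Gstp1 and Gstz1), against 12.1% of windows. Only in Gstp1, among the member windows, did motifs overlap, at a TGACTCAGC that began 61 bases before the start and matched both of the last patterns. It is shown in capitals in the 100 bases upstream of Gstp1.
Gstp1 (chr1:210769706-210769805, minus strand): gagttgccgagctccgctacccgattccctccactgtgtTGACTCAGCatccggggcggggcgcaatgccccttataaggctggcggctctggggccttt
A match of letters is a description and was not tested as a binding site.

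All 10 GST symbols had a row in the female table and 9 of the 10 GST rows were in the male table, where 8 of the 10 symbols appeared. The average levels ran from 0.70 to 6.31 log2 CPM in the female table and from −0.17 to 6.36 log2 CPM in the male table, beside a median over all genes of 4.01 log2 CPM in the female table and 3.72 log2 CPM in the male table. The lowest level of any gene was 0.503 CPM in the female table and 0.463 CPM in the male table, so each table appears to hold only genes above a low limit. A CPM value counts reads and is not divided by transcript length. Since no length was at hand, members are not ranked against each other by level, and a percentile below says only where a gene's read share stood among all genes of the same table.

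The mu class was mostly well represented. Gstm1, a widely expressed mu enzyme, had 5.96 log2 CPM (62.4 CPM) in the female table and 6.36 log2 CPM (82.2 CPM) in the male table. It stood at percentile 83.4 in the female table and at percentile 89.5 in the male table. The Gstm2/Gstm7 row had 5.39 log2 CPM (41.9 CPM) in the female table and 5.90 log2 CPM (59.8 CPM) in the male table, at percentile 74.9 of the female table and percentile 84.7 of the male table. Both rows lay higher in the male table.

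The Gstm5/Gstm3 row lay the other way. It had 5.46 log2 CPM (44.0 CPM) in the female table and 4.93 log2 CPM (30.6 CPM) in the male table, at percentile 76.0 in the female table and percentile 71.2 in the male table. In rodents Gstm5 is known from brain and testis. The separate row named Gstm3 in the female table was low, at 1.39 log2 CPM (2.62 CPM) and percentile 14.0. Its absence from the male table does not give a level there.

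Gstp1 (ENSRNOG00000018237), the only member of the pi class, differed more between the tables than any other member with a row in both. It had 6.31 log2 CPM (79.1 CPM) in the female table and 5.20 log2 CPM (36.7 CPM) in the male table. It stood at percentile 87.2 of the female table and percentile 75.2 of the male table. Gsta4 (ENSRNOG00000030449), the alpha class enzyme for lipid aldehydes, was near the middle of the genes listed. It had 4.03 log2 CPM (16.3 CPM) in the female table and 4.27 log2 CPM (19.2 CPM) in the male table, at percentile 50.3 in the female table and percentile 59.8 in the male table.

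Gsto1 and Gstz1, whose products do other work than classical conjugation, were nearly level between the tables. Gsto1 (ENSRNOG00000028746), which reduces mixed disulfides and dehydroascorbate, had 4.91 log2 CPM (30.0 CPM) in the female table and 4.99 log2 CPM (31.9 CPM) in the male table. Gstz1 (ENSRNOG00000047708), the maleylacetoacetate isomerase of tyrosine breakdown, had 4.42 log2 CPM (21.4 CPM) in the female table and 4.46 log2 CPM (22.0 CPM) in the male table. Gstk1 (ENSRNOG00000016484), the mitochondrial and peroxisomal kappa enzyme, had 2.94 log2 CPM (7.67 CPM) in the female table and 2.93 log2 CPM (7.63 CPM) in the male table. Its read share was below the median gene in both tables, at percentile 32.6 of the female and percentile 37.4 of the male table.

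Gstt1 (ENSRNOG00000049771), a theta enzyme that acts on small halogenated compounds, was close to the lower limit of both tables. It had 0.70 log2 CPM (1.62 CPM) in the female table and −0.17 log2 CPM (0.891 CPM) in the male table, at percentile 7.74 of the female table and percentile 0.657 of the male table. A level this near the limit rests on few reads, and the number of reads is not known here.

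**Figure D1:**
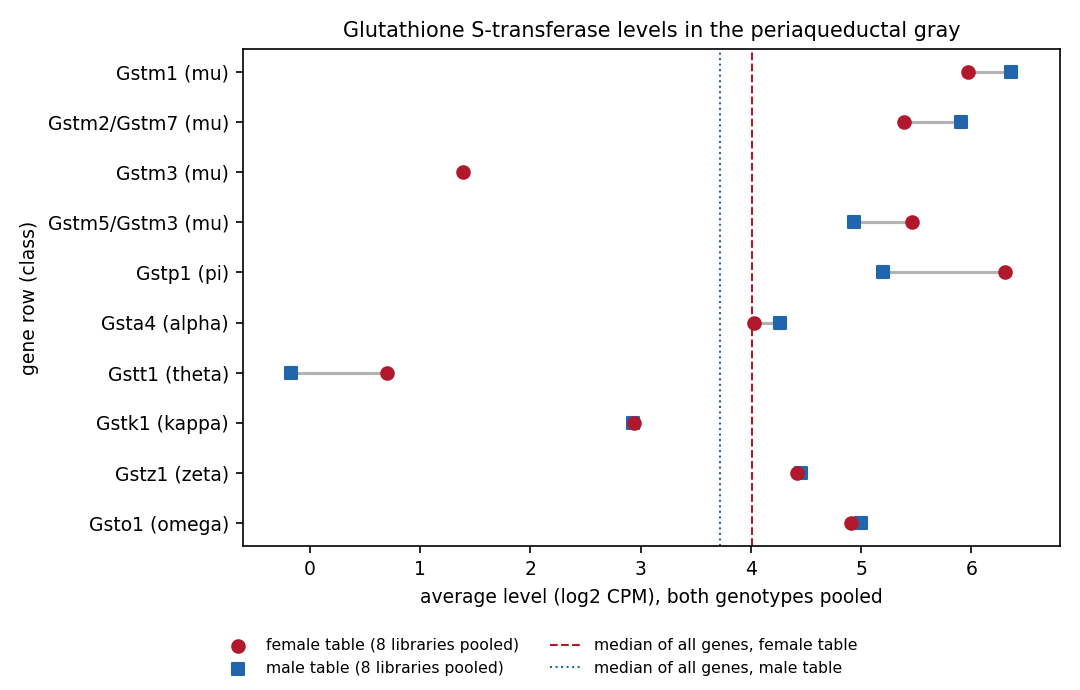
Average level in log2 CPM (x axis) of each glutathione S-transferase row (y axis, class in parentheses), with circles for the female table and squares for the male table, each the authors' mean over 8 libraries with genotypes pooled and no error available, and lines at the median of all genes in each table. Gstp1 lay at 6.31 in the female table and 5.20 in the male table, Gstm1 and Gstm2/Gstm7 lay higher in the male table, and Gstm3 had a row only in the female table.

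Summed over the members, GST transcripts took 307.1 CPM in the female table and 290.8 CPM in the male table. Gstp1 alone gave 79.1 CPM of the female and 36.7 CPM of the male sum. The Gstm3 row (2.62 CPM) was in the female sum only. Of the rows in both tables, 5 were lower in the female table, so the sums do not show a direction shared by the members. The mu class held 49.2% of this sum in the female table and 59.3% in the male table. The pi class held 25.8% in the female table and 12.6% in the male table. Omega held 9.78% in the female table and 11.0% in the male table, and zeta held 6.98% in the female table and 7.55% in the male table. Alpha held 5.30% in the female table and 6.62% in the male table, kappa held 2.50% and 2.62% in the female and the male table, and theta held 0.528% and 0.306% in the female and the male table. Mu and pi rows together thus made up most of the reads of these members in each table. Pi took a smaller part in the male table. Other GST genes lie outside this sum, so the shares are not those of whole classes. Theta here is Gstt1 alone, while Gstt3, another theta gene, had 5.28 log2 CPM in both tables. The shares are of reads, in which longer transcripts weigh more.

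The tables were normalized separately by the authors, and library names follow different styles in the sexes, so that sex and a possible cohort cannot be told apart. Symbols of 279 shared IDs also differed between the tables. A possible difference of annotation or of dissection cannot be told apart from sex either. A difference between the tables is therefore given as a description and read beside the same difference over all genes. Over the 13731 genes in both tables, the female minus male difference of the average level had a median of 0.19 on the log2 scale, a 1.14-fold higher level in the female table, and 34.4% of genes had a negative difference. From the 10% to the 90% quantile the differences ran from −0.38 to 0.996. No test was possible, and no gene was given a p-value, so there is no background count of genes past a test.

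Among the 9 GST rows in both tables the median difference was −0.04, with 6 rows below the median of all shared genes and 3 above it. The difference was 1.11 for Gstp1, a female level 2.16-fold that of the male table, and 92.3% of shared genes had a difference as low or lower. It was 0.87 for Gstt1 (1.82-fold, 86.2% of genes at or below) and 0.52 for Gstm5/Gstm3 (1.44-fold, 72.6% of genes at or below). At the other end it was −0.51 for Gstm2/Gstm7, a male level 1.43-fold that of the female table, with 6.39% of shared genes at or below it. Gstm1 had a difference of −0.40 (1.32-fold higher in the male table, 9.40% of genes at or below). These Gstm rows lay inside the 5% and 95% quantiles of all genes, which were −0.59 and 1.28, as did Gstp1.

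The remaining rows had smaller differences, which were −0.24 for Gsta4, −0.09 for Gsto1, −0.04 for Gstz1 and 0.01 for Gstk1. With 16.8%, 27.3%, 31.3% and 35.0% of shared genes at or below them, each of them lay below the median gene. Relative to the median gene, that is with 0.19 taken off, the values became −0.43 for Gsta4, −0.27 for Gsto1, −0.22 for Gstz1 and −0.18 for Gstk1. On the same footing Gstm1 stood at −0.58, Gstm2/Gstm7 at −0.70, Gstm5/Gstm3 at 0.34, Gstt1 at 0.68 and Gstp1 at 0.92. The rows of a single cluster, Gstm1 and Gstm2/Gstm7 on the one side and Gstm5/Gstm3 on the other, thus lay on both sides of the median gene. Which gene each renamed row stands for is not settled, and the division of reads among Gstm genes may differ between the tables.

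**Figure D2:**
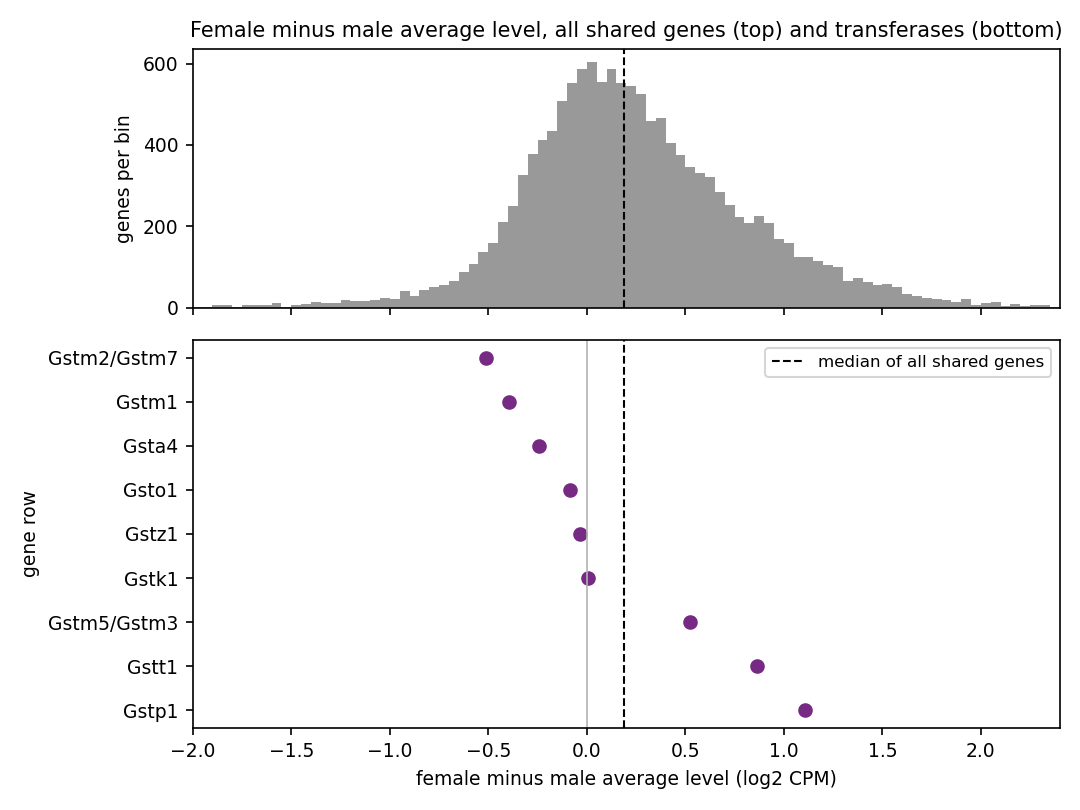
Female minus male average level in log2 CPM (x axis) for the 13731 shared genes (top, number of genes per bin of 0.05, with 97 genes beyond the drawn range of −2 to 2.4) and for each glutathione S-transferase row in both tables (bottom), with the dashed line at the all-gene median of 0.19. Gstp1, Gstt1 and Gstm5/Gstm3 lay to the right of that line and the other 6 rows to its left, from −0.51 to 0.01.

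Gstp1 is a marker of mature oligodendrocytes in rodents, so the genes of that cell type are given beside it. The 3 oligodendrocyte genes reported all had a row in both tables, and their summed level was 5409 CPM in the female table and 2778 CPM in the male table. Mbp made up most of both sums. The myelin genes Mbp and Mag had 12.29 and 8.11 log2 CPM in the female table and 11.31 and 6.76 log2 CPM in the male table. Mog had 7.07 log2 CPM in the female table and 7.09 log2 CPM in the male table, so Mog did not share the direction of Gstp1. Whether the myelin genes had a part in the Gstp1 difference was not tested. In bulk tissue, fewer cells of a type and less RNA per cell cannot be told apart.

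Mu class genes are linked to astrocytes, and the 5 astrocyte genes all had rows in both tables, with a summed level of 1027 CPM in the female table and 1088 CPM in the male table. Aqp4 and Gja1 had 8.81 and 7.26 log2 CPM in the female table and 9.14 and 7.44 log2 CPM in the male table. Slc1a3, Gfap and Aldh1l1 were higher in the female table by 0.25, 0.40 and 0.60 on the log2 scale. Against the all-gene median difference, 2 of the 5 lay below and 3 above, with Slc1a3 close to it (55.0% of shared genes at or below). The part of astrocytes in the Gstm1 and Gstm2/Gstm7 differences was not tested. The 4 microglial genes summed to 84.2 CPM in the female table and 78.2 CPM in the male table, and all 4 lay below the all-gene median difference of 0.19. The 4 neuronal genes summed to 1276 CPM in the female table and 1583 CPM in the male table, though the row of Eno2, at 6.19 log2 CPM in the female table and 1.43 log2 CPM in the male table, carried a placeholder name in the male table.

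The labelled tissue was checked against genes of the PAG and its surroundings. Slc17a6, the glutamate transporter typical of midbrain neurons, had 8.73 log2 CPM in the female table and 8.60 log2 CPM in the male table. Gad1 and Gad2, which mark GABA neurons, had 7.70 and 8.39 log2 CPM in the female table and 7.52 and 8.47 log2 CPM in the male table. Tac1, of the same list, had 5.16 log2 CPM in the female table and 4.87 log2 CPM in the male table, while Pou4f1 was low at 0.09 log2 CPM in the female table and had no row in the male table. The forebrain gene Emx1 had no row in either table, and Neurod6, of the same list, was low at 0.56 log2 CPM in the female table and 1.48 log2 CPM in the male table. The cerebellar genes Gabra6 and Fat2 had a row only in the male table, at 3.22 and 4.27 log2 CPM, whereas Cbln1, of the same list, had 2.10 log2 CPM in the female table and 2.52 log2 CPM in the male table. The serotonergic genes Tph2 and Slc6a4 had 3.09 and 1.37 log2 CPM in the female table and 3.79 and 2.74 log2 CPM in the male table. Cldn5 and Flt1, genes of vessel walls, had 5.19 and 6.46 log2 CPM in the female table and 2.89 and 6.32 log2 CPM in the male table. Ttr, the leading gene of choroid plexus, had a row only in the male table, at −0.82 log2 CPM, and Kl, of the same list, had 0.84 log2 CPM in the female table and 1.03 log2 CPM in the male table. The ependymal gene Ccdc153 had a row only in the male table, at 2.07 log2 CPM, and Foxj1, of the same list, had none in either table. Folr1 of the choroid plexus list and Pecam1 of the vessel list also had no row in either table. The part of such differences in what was dissected or annotated in the GST differences was not tested.

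The GST members work within a larger glutathione system, and 4 lists of its genes were read in the same way. Of 23 other glutathione transferases and relatives, 14 had rows of their own in both tables, 7 below and 7 above the all-gene median, with a median difference of 0.24 and a range of −0.13 to 0.90. Gdap1, a mitochondrial outer membrane protein with a GST-like fold, had 7.02 log2 CPM in the female table and 7.00 log2 CPM in the male table. Mgst3, a membrane-bound glutathione transferase, had 5.34 log2 CPM in the female table and 4.94 log2 CPM in the male table. Gstt3, the theta gene next to Gstt1, had 5.28 log2 CPM in both tables and so was not low like Gstt1.

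Several close relatives were near the lower limit. Gstm6 of the mu cluster had 0.32 log2 CPM in the female table and 0.40 log2 CPM in the male table. Gsta3 had 0.58 log2 CPM in the female table and 0.52 log2 CPM in the male table, and Ptges, a prostaglandin E synthase, had 0.48 log2 CPM in the female table and −0.07 log2 CPM in the male table. Gsto2, the neighbour of Gsto1, had 1.16 log2 CPM in the female table and 0.81 log2 CPM in the male table, where its ID carried a placeholder name. Gsta1, Gsta2, Gsta5, Gstt4, Gstm6l, Hpgds, Mgst2 and Ltc4s had no row in either table, and the name Gstm7 stood on the row already counted as Gstm2/Gstm7.

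Of 16 genes for making, breaking down, reducing or exporting glutathione, 14 had rows in both tables, 7 below and 7 above the all-gene median, with a median difference of 0.19. The range ran from −0.98 for Slc7a11, the cystine importer, to 1.15 for Ggt7. Abcc5, an exporter, had 7.21 log2 CPM in the female table and 6.96 log2 CPM in the male table. Ggt7, of the gamma-glutamyltransferase family, had 6.14 log2 CPM in the female table and 4.99 log2 CPM in the male table. Abcc1, another exporter, had 5.69 log2 CPM in both tables.

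All 13 genes of other enzymes that use glutathione or share its substrates had rows in both tables, 8 below and 5 above the median, with a median difference of 0.14 and a range of −0.35 to 1.13. Prdx6, a peroxiredoxin that GST pi recharges, had 7.04 log2 CPM in the female table and 6.40 log2 CPM in the male table. Glo1, which clears methylglyoxal, had 6.25 log2 CPM in the female table and 6.33 log2 CPM in the male table. Gpx4, which removes lipid peroxides, had 6.10 log2 CPM in the female table and 5.92 log2 CPM in the male table, and Gpx7 was low at 0.51 log2 CPM in the female table and 0.13 log2 CPM in the male table.

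Nrf2 is the transcription factor best known for raising GST genes under oxidative stress, and Keap1 is the protein that holds it back. Of 10 genes of this pathway, 9 had rows in both tables, 1 below and 8 above the all-gene median, with a median difference of 0.55. Nfe2l2, which encodes Nrf2, was the one below, at 4.59 log2 CPM in the female table and 4.69 log2 CPM in the male table. Keap1 had 5.11 log2 CPM in the female table and 4.18 log2 CPM in the male table. Txnrd1, a thioredoxin reductase, had 5.75 log2 CPM in the female table and 5.32 log2 CPM in the male table, and Maff, a small Maf partner, had 0.76 log2 CPM in the female table and 0.41 log2 CPM in the male table. Against these 8 of 9, 3 of the 9 GST rows lay above the median, and nothing particular to either list was tested.

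**Figure D3:**
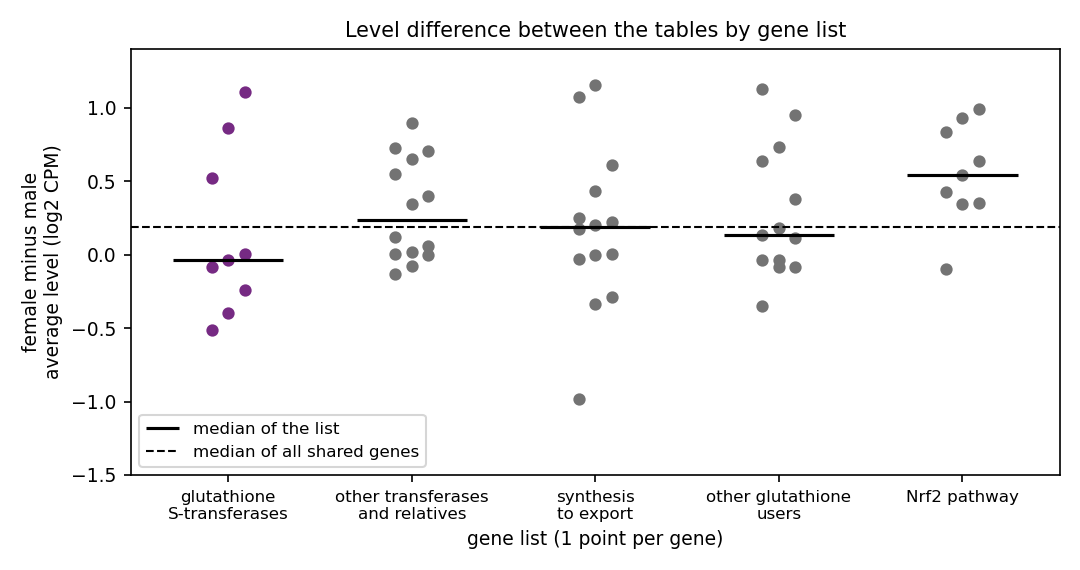
Female minus male average level in log2 CPM (y axis) for each gene in both tables, by gene list (x axis), with a short bar at the median of each list and a dashed line at the all-gene median of 0.19. The list medians were −0.04 for the glutathione S-transferases, 0.24 for other transferases and relatives, 0.19 for synthesis to export, 0.14 for other glutathione users and 0.55 for the Nrf2 pathway.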

How the data were processed

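Total RNA was taken from flash-frozen brain, and libraries were made with Illumina's TruSeq kit. Per the labels the authors used RSEM and edgeR 3.9; the aligner, build, annotation and filter on low levels are not named there. The deposited tables, made separately for females and males, give an average log2 CPM over the 8 libraries of a sex, which was the unit analysed. The 8 columns of fold changes, likelihood ratios, p-values and adjusted p-values of Pink1-/- over WT in these tables, and a status column in each, are comparisons made by the authors and were not used. No value per library was analysed, so the planned genotype tests could not be run.

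Members and lists were chosen with earlier results of these data known. A few genes of the lists are not reported here and were left out of list counts and sums. Tables were joined by Ensembl ID. Percentiles count all genes of a table, and differences are female minus male. CPM is 2 to the power of the deposited log2 value, summed for classes and lists. Of each list, the 3 genes with the highest level in the female table and those in the lowest 10% of either table were named. Slc7a11 and the marker genes printed were chosen after their values were seen. Order per length and protein identity were planned and not run, since no lengths or proteins were at hand. Promoters and gene order came from RefSeq tables of GRCr8, possibly another build than that of the files. Python 3.11.15, numpy 2.4.6, pandas 2.3.3 and matplotlib 3.10.9 were used. Differences and their median were tested on the female levels beside a copy with known shifts, and percentiles on the female levels. Class shares, list counts and motif searches had no such test.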

Additional observations from a re-analysis of the deposited data

How the results depend on the processing

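The female minus male difference at the name Gstm3 turned from 0.52, where tables were joined by Ensembl ID, to −3.55 where they were joined by symbol, an alternative chosen after seeing the data; by construction that join sets the female row of ENSRNOG00000058357 against the male row of ENSRNOG00000049743. The number of GST rows below the all-gene median was also 6 with log2(CPM + 1) and with differences of percentiles. It was 6 of 8 symbols in the join by symbol, but of different rows, since Gstm2/Gstm7 had no shared symbol and Gstm3 moved below the median. With log2(CPM + 1), 0 rows changed sign and the largest move was 0.39, for Gstt1. With the median difference taken off, 1 row changed sign, Gstk1. Percentiles moved by −2.91 to −0.34 points among genes in both tables, by −4.06 to −0.20 points without placeholder names and by −1.41 to −0.18 points among genes of at least 1 CPM, where Gstt1 dropped out of the male table. The mu share in the female table was 48.7% without Gstm3. The alternatives per coding or transcript length were not run.

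No paired analysis was possible because the pooled columns carry no value per library; for the same reason no library was left out in turn and no count test or filter on low counts was run. The pooled level hides which genotype or animal carries a read share, and reads shared between Gstm genes, or with pseudogenes of Gstp1 and Gsta4, limit each single row. Depth is unknown, which limits Gstt1 and Gstm3 most.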
